A study of Mus musculus and Rattus norvegicus with 18 samples.

Results

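Integrin receptors for fibronectin, collagen and latent TGF-β were followed through 10 subunit genes in 2 kinds of kidney cell. They are Itgav, Itgb1, Itgb3, Itgb5, Itgb6, Itgb8, Itga1, Itga2, Itga5 and Itga11, taken by gene symbol. All 10 are among the 22322 genes of the mouse data, and 9 are among the 22050 genes of the rat data, where Itgb5 was not analysed here. Mouse primary tubular epithelial cells (TECs), cultured from kidney, and NRK49F, a fibroblast line from rat kidney, were each studied in 3 groups of 3 libraries, 18 libraries in all. The group with TGF-β1 and narciclasine (Ncls in the labels) had 20 nM narciclasine for 2 h, then 5 ng/ml TGF-β1 with narciclasine for a further 24 h. The group with TGF-β1 alone had 5 ng/ml TGF-β1 for 24 h, and the control cells had medium with neither agent. All groups were starved of serum for 6 h beforehand and then kept in serum-free medium. Narciclasine is an alkaloid made by daffodils, known as an inhibitor of ribosomal peptide bond formation. The design tests whether narciclasine alters responses to TGF-β1 that are linked to fibrosis. It has no group with narciclasine alone, so what narciclasine does to the TGF-β1 response and what it does by itself cannot be told apart. NRK49F is a single line, the series calls its replicates biological, and whether TEC replicates came from separate animals was not given, so the p-values speak to the spread of these libraries and not of animals.

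An integrin is a pair of one α and one β chain that spans the cell membrane, holds the cell to its matrix and signals in both directions. TGF-β is secreted in a latent form, wrapped in a propeptide whose arginine-glycine-aspartate site is bound by integrins with the αv chain, and αvβ6 and αvβ8 are the best known activators of latent TGF-β1 through that site. In the kidney, TGF-β drives fibrosis, tubular cells are known to carry αvβ6, and αvβ3, αvβ5 and α5β1 hold cells to fibronectin or vitronectin. The α1, α2 and α11 chains pair with β1 to form collagen receptors, of which α11β1 is known as a receptor of fibroblasts.

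Libraries held 16652016 to 25192716 counts in TECs and 14695732 to 18463855 counts in NRK49F. In NRK49F the library numbered 2 stood apart from the other 2 of its group in each group: the chi-square per gene between replicates, for which counting error alone gives 1, was 8.48 to 23.1 for pairs with library 2 and 2.36 to 3.45 for pairs without it, against 1.90 to 4.14 in TECs. TECs held epithelial markers, with a summed level of 10 tubular genes of 7328 to 7455 CPM with TGF-β1 and narciclasine, 6536 to 6735 CPM with TGF-β1 and 5752 to 5822 CPM in control cells. Slc34a1, the phosphate transporter of the proximal tubule, was near 0 in all 3 TEC groups (highest group mean 0.249 CPM). NRK49F lacked the epithelial genes Cdh1 and Epcam (at most 0.455 CPM) but held the keratin Krt8 at 599 CPM with TGF-β1 and narciclasine, 707 CPM with TGF-β1 and 1208 CPM in control cells. The fibroblast markers Dcn, Thy1 and Meox1 were at or near 0 in NRK49F (at most 0.329 CPM), while Col1a1 and Pdgfra were present. Levels are in CPM, the count over the scaled library total, and differences are log2 changes. They were tested with edgeR's quasi-likelihood test, with p-values adjusted by Benjamini-Hochberg over all genes of a cell kind, and a gene was called changed at an adjusted p under 0.05.

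In TECs, TGF-β1 raised most of these receptor chains, and narciclasine added to TGF-β1 lowered most of them. With TGF-β1 over control, 7 of the 10 subunits were higher (Itgav, Itgb1, Itgb3, Itgb5, Itga2, Itga5 and Itga11), Itgb8 and Itga1 were lower, and Itgb6 was not called. Over all 13244 genes tested, 69.0% were called changed, and the members' count is not far above that share; 34.1% were called higher and 34.9% lower. The median log2 change was 1.00 over the members and −0.00489 over all genes. A total of 6 members passed the test with an absolute log2 change of at least 1, beside 15.0% of all genes, and the libraries of both groups did not overlap for 9 members, beside 71.2% of all genes. With TGF-β1 and narciclasine over TGF-β1 alone, 8 members were lower, none was higher (0 also at an unadjusted p under 0.05 or with DESeq2), and Itgb8 and Itga1 were not called, beside 52.3% of genes called in either direction, 26.8% called higher and 25.5% called lower. Libraries of both groups did not overlap for 8 members, beside 57.1% of all genes. The median log2 change was −0.43 over the members and 0.00187 over all genes, and no member reached an absolute log2 change of 1, beside 4.41% of all genes. In cells with both agents over control, where 63.0% of genes were called, 32.4% higher and 30.6% lower, 6 members were higher, Itgb6, Itgb8 and Itga1 were lower and Itga11 was not called. These comparisons share libraries with one another.

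**Figure D1:**
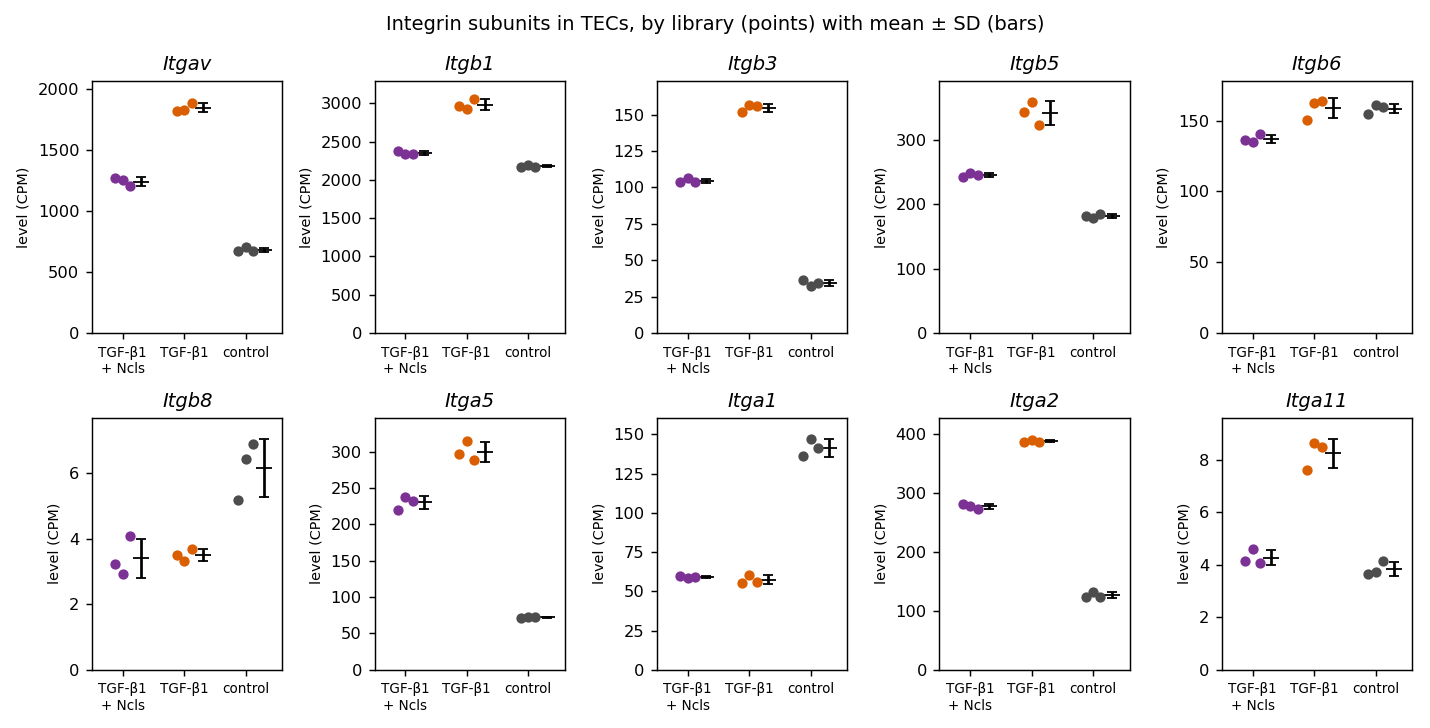
Level of each integrin subunit in CPM (vertical axes, from 0) in the 9 TEC libraries, with TGF-β1 and narciclasine, TGF-β1 alone and control from left to right. Points are libraries and bars are the mean ± SD of 3; Itgav, Itgb1, Itgb3, Itgb5, Itga5 and Itga2 form 3 separate steps with TGF-β1 highest, whereas Itga1 is highest in control cells.

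Itgav (ENSMUSG00000027087, GRCm38 chr2:83724397-83806916, plus strand) encodes the αv chain, the partner shared by the β chains of the receptors for latent TGF-β and vitronectin. It had 1273, 1253 and 1205 CPM with TGF-β1 and narciclasine, 1826, 1833 and 1891 CPM with TGF-β1, and 677, 703 and 673 CPM in control cells. The 3 groups did not overlap, and cells with both agents lay between the other groups. The log2 change was 1.43 (SE 0.0235, adjusted p = 3.12e-37) with TGF-β1 over control and −0.57 (SE 0.023, adjusted p = 5.64e-23) with TGF-β1 and narciclasine over TGF-β1. In GENCODE M21, Itgav shares 634 exon bases, 5.90% of its own, with Gm13684 on the opposite strand; the strand of counting is not given, so reads there cannot be assigned to one or the other. Itgb3 (ENSMUSG00000020689, GRCm38 chr11:104608000-104670476, plus strand) encodes the β3 chain, which pairs with αv in a receptor for vitronectin, fibronectin and osteopontin. Its level was 104, 106 and 104 CPM with TGF-β1 and narciclasine, 152, 156 and 156 CPM with TGF-β1, and 36.6, 32.5 and 34.3 CPM in control cells. All TGF-β1 libraries were above all control libraries, and the libraries with both agents lay between them with a narrow spread. The change of 2.17 (SE 0.0411, adjusted p = 4.13e-35) with TGF-β1 over control was the largest among the 10 members in TECs, and narciclasine added to TGF-β1 gave −0.56 (SE 0.036, adjusted p = 1.66e-16) over TGF-β1 alone. With both agents Itgb3 was still 3.04-fold its control level, a log2 change of 1.61. Itgb5 (ENSMUSG00000022817, GRCm38 chr16:33829665-33949338, plus strand) encodes β5, the chain of the αvβ5 vitronectin receptor. It stood at 242, 249 and 245 CPM with TGF-β1 and narciclasine, 344, 359 and 323 CPM with TGF-β1, and 182, 178 and 185 CPM in control cells. Again the groups did not overlap and TGF-β1 alone was highest, with log2 changes of 0.91 (SE 0.0308, adjusted p = 1.04e-25) over control and −0.48 (SE 0.0303, adjusted p = 2.81e-16) for both agents over TGF-β1.

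The β chains of αvβ6 and αvβ8 behaved otherwise in TECs than their partner Itgav: Itgb6 was not called with TGF-β1, and Itgb8 fell. Itgb6 (ENSMUSG00000026971, GRCm38 chr2:60598292-60722643, minus strand), the β6 chain of epithelial αvβ6, had 136, 135 and 141 CPM with TGF-β1 and narciclasine, 151, 162 and 164 CPM with TGF-β1, and 155, 161 and 159 CPM in control cells. The TGF-β1 and control libraries overlapped, whereas every library with both agents lay below them. In log2 terms the change was 0.0036 (SE 0.033, adjusted p = 0.929) with TGF-β1 over control, and that of both agents over TGF-β1 was −0.21 (SE 0.0336, adjusted p = 1.38e-06). Under scaling to library totals, which moved the median log2 change of all genes to −0.135, Itgb6 came out lower with TGF-β1 over control (log2 change −0.13, adjusted p = 0.000747). Itgb8 (ENSMUSG00000025321, GRCm38 chr12:119158022-119238802, minus strand), the β8 chain of αvβ8, was rare, with 3.22, 2.92 and 4.08 CPM with TGF-β1 and narciclasine, 3.52, 3.33 and 3.68 CPM with TGF-β1, and 5.18, 6.43 and 6.88 CPM in control cells. The libraries of both treated groups lay below those of control cells and overlapped each other. The test gave log2 changes of −0.82 (SE 0.151, adjusted p = 9e-06) for TGF-β1 over control and −0.05 (SE 0.168, adjusted p = 0.819) for both agents over TGF-β1. The Itgb8 values rest on 54 to 81 counts a library in the groups with TGF-β1 and on 91 to 171 in control cells.

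The fibronectin receptor α5β1 is formed by Itga5 and Itgb1, and both chains rose with TGF-β1 and fell when narciclasine was added. The sequence around the start of Itga5, 250 bases before and 50 after, is shown because Itga5 had the second largest increase in TECs and because this window holds a pair of matches to CAGAC, the short element bound by SMAD proteins. Both lie just past the start that RefSeq gives, and upstream of the GENCODE gene start printed for Itga5 here. Capitals mark CAGAC or its reverse complement GTCTG. The sequence is from RefSeq, build GRCm38.p6 (chr15:103366742-103367041, minus strand), written 5′ to 3′ in the direction of transcription.
Itga5: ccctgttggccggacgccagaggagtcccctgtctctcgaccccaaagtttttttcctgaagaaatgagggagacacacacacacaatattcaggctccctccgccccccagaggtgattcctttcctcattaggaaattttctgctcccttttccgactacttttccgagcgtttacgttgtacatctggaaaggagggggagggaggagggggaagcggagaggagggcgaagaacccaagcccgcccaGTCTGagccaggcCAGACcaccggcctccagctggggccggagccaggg
Itga5 (ENSMUSG00000000555, GRCm38 chr15:103344286-103366763, minus strand), the α chain that binds fibronectin, had 220.3, 238 and 232 CPM with TGF-β1 and narciclasine, 296, 315 and 288 CPM with TGF-β1, and 71.3, 72.0 and 73.2 CPM in control cells. No library of one group reached those of another, and cells with both agents stayed nearer to TGF-β1 than to control. The log2 change was 2.05 (SE 0.0351, adjusted p = 1.42e-35) with TGF-β1 over control, −0.38 (SE 0.0316, adjusted p = 5.82e-13) with both agents over TGF-β1, and 1.67 (SE 0.0356, adjusted p = 3.29e-32) with both agents over control. Itgb1 (ENSMUSG00000025809, GRCm38 chr8:128685654-128733200, plus strand), the β chain shared by the fibronectin and collagen receptors, had 2379, 2345 and 2333 CPM with TGF-β1 and narciclasine, 2971, 2921 and 3061 CPM with TGF-β1, and 2170.4, 2195 and 2170.1 CPM in control cells. TGF-β1 libraries were highest, and those with both agents lay a little above control without overlap. Its log2 changes were 0.45 (SE 0.0203, adjusted p = 2.71e-22) for TGF-β1 over control and −0.34 (SE 0.0203, adjusted p = 1.36e-17) for both agents over TGF-β1. For both agents over control the change was 0.11 (SE 0.0203, adjusted p = 9.98e-06), and scaling by total counts ended that call (log2 change 0.0108, adjusted p = 0.658).

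Among the collagen receptors, TGF-β1 moved the neighbouring genes Itga1 and Itga2 in opposite directions in TECs. Both lie on mouse chromosome 13 on the minus strand, 20995 bases apart with 0 protein-coding genes between them. Their promoters are shown for that reason, from RefSeq GRCm38.p6, with chr13:115101915-115102214, minus strand for Itga1 and chr13:114932051-114932350, minus strand for Itga2. Capitals again mark CAGAC or GTCTG, with 1 match in Itga1 and 3 in Itga2.
Itga1: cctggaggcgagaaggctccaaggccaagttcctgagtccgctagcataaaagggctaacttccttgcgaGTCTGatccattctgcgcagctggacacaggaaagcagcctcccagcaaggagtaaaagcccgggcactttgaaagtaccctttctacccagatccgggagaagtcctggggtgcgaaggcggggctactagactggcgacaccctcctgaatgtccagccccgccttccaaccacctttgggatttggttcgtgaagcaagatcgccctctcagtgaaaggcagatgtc
Itga2: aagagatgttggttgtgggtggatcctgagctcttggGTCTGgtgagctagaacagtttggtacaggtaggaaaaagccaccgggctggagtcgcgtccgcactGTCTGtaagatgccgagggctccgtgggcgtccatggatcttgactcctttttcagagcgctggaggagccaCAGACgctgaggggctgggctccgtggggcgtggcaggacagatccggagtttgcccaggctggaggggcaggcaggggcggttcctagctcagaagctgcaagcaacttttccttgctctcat
Itga1 (ENSMUSG00000042284, GRCm38 chr13:114953096-115101964, minus strand), the α1 chain that favours basement membrane collagen, had 60.0, 58.7 and 59.0 CPM with TGF-β1 and narciclasine, 55.4, 60.5 and 56.1 CPM with TGF-β1, and 136, 147 and 141 CPM in control cells. Every treated library was far below every control library, and both treated groups overlapped. The log2 change with TGF-β1 over control was −1.31 (SE 0.0402, adjusted p = 7.58e-28), and with both agents over TGF-β1 it was 0.05 (SE 0.0443, adjusted p = 0.34). Itga1 shares 685 exon bases, 3.68% of its own, with Gm49395 on the same strand, where reads cannot be told apart. Itga2 (ENSMUSG00000015533, GRCm38 chr13:114833081-114932100, minus strand), the α2 chain that favours fibrillar collagen, had 280.5, 277 and 273 CPM with TGF-β1 and narciclasine, 385, 389 and 386 CPM with TGF-β1, and 123, 132 and 123 CPM in control cells. TGF-β1 libraries were highest and control libraries lowest, with no overlap. This gave log2 changes of 1.62 (SE 0.0291, adjusted p = 7.49e-36) for TGF-β1 over control and −0.48 (SE 0.0274, adjusted p = 4.03e-18) for both agents over TGF-β1. Itga11 (ENSMUSG00000032243, GRCm38 chr9:62677826-62783982, plus strand), the α11 chain known from fibroblasts, was low, with 4.16, 4.59 and 4.08 CPM with TGF-β1 and narciclasine, 7.63, 8.65 and 8.49 CPM with TGF-β1, and 3.64, 3.72 and 4.16 CPM in control cells. The TGF-β1 libraries were above all others, and the libraries with both agents overlapped those of control cells. In log2 terms the change was 1.10 (SE 0.13, adjusted p = 1.13e-09) with TGF-β1 over control, −0.95 (SE 0.13, adjusted p = 7.31e-08) with both agents over TGF-β1, and 0.15 (SE 0.144, adjusted p = 0.367) with both agents over control.

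Markers of other cells were summed in TECs, and the lists did not all follow the same pattern over the groups. The summed level of 9 fibroblast genes was 114 to 126 CPM with TGF-β1 and narciclasine, 314 to 338 CPM with TGF-β1 and 83.4 to 86.0 CPM in control cells; Col1a1 and Col1a2 made up most of it, and Dcn and Lum were below 0.3 CPM in every group mean. The summed level of 10 macrophage and leukocyte genes was 30.1 to 30.8 CPM with both agents, 70.1 to 75.9 CPM with TGF-β1 and 46.3 to 48.0 CPM in control cells, with every gene of the list above 0. These genes did not move alike. With TGF-β1, Lyz2 averaged 21.9 CPM and Cd14 22.4 CPM, above 7.90 and 16.5 CPM in control cells. Ptprc, at 2.41 CPM, and Cd68, at 5.88 CPM, were below their control means of 3.13 and 7.17 CPM. Csf1r was highest with both agents, at 12.6 CPM, beside 11.2 CPM with TGF-β1. Platelet genes, whose cells carry much Itgb3 and Itga2, summed to 60.6 to 66.4 CPM with both agents, 55.5 to 62.8 CPM with TGF-β1 and 135 to 142 CPM in control cells; Ppbp made up most of it, and Pf4 was below 0.8 CPM in every group mean. Endothelial genes summed to 108 to 113 CPM with both agents, 113 to 119 CPM with TGF-β1 and 101 to 102 CPM in control cells, and podocyte genes to 67.9 to 73.5 CPM over all TEC libraries. The part of these cells in the integrin values was not tested, and in bulk RNA fewer cells of a kind and less RNA per cell cannot be told apart.

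Levels of different genes were compared in TECs per kilobase of exon, as CPM per kb (mean ± SD, n = 3). Control cells ranked, from high to low, Itgb1 at 534 ± 3.51, Itgav at 63.7 ± 1.51, Itgb5 at 51.2 ± 1.04, Itgb6 at 22.3 ± 0.429, Itga2 at 17.7 ± 0.729, Itga5 at 14.6 ± 0.195, Itga1 at 7.60 ± 0.295, Itgb3 at 5.84 ± 0.355, Itga11 at 0.749 ± 0.0544, Itgb8 at 0.557 ± 0.0799. No neighbours in that order overlapped between libraries, nor did any in the orders of the other groups. TGF-β1 brought Itga5 to the fourth place at 60.7 ± 2.79 CPM per kb, above Itga2, again the fifth, at 54.3 ± 0.271, and Itgb3 to the sixth at 26.2 ± 0.433, just above Itgb6 at 22.4 ± 1.03. That last order depended on the length used: per kb of the longest coding transcript Itgb6 was at 33.1 and Itgb3 at 26.7. With both agents Itgb6, at 19.3 ± 0.396, was above Itgb3, at 17.7 ± 0.229 CPM per kb. Itgb1 made up 84.4% of the summed level of the 5 β chains per kb with both agents, 83.4% with TGF-β1 and 87.0% in control cells. Among these β chains other than Itgb1, Itgb3 took 16.7 ± 0.16% with both agents, 18.1 ± 0.615% with TGF-β1 and 7.31 ± 0.421% in control cells (SD, n = 3). Itgb6 took 18.2 ± 0.397% with both agents, 15.4 ± 0.875% with TGF-β1 and 27.9 ± 0.718% in control cells, and Itgb5 took between 64.1% and 66.3% in every group. Of the 3 collagen α chains, Itga2 took 90.6 ± 0.0673% with both agents, 92.0 ± 0.335% with TGF-β1 and 67.9 ± 0.642% in control cells, and Itga1 took 7.44 ± 0.0815% with both agents, 5.23 ± 0.209% with TGF-β1 and 29.2 ± 0.41% in control cells. With the longest coding transcript as the length, the Itga1 share was 11.9% with both agents, 8.52% with TGF-β1 and 41.1% in control cells. By that length Itga2 took 86.1% with both agents, 88.8% with TGF-β1 and 56.5% in control cells. The Itgb5 share was then less even, at 61.4% with both agents, 63.4% with TGF-β1 and 58.3% in control cells. The shares were not tested, since they restate the levels above.

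**Figure D2:**
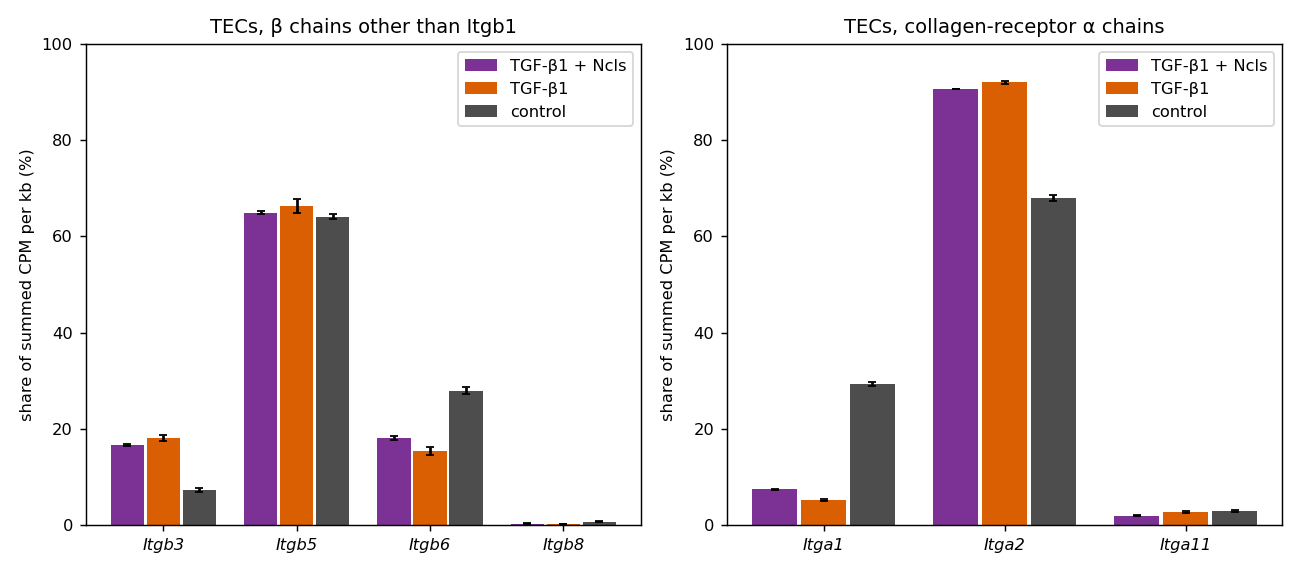
Share of the summed level per kb of exon (vertical axis, %) of each β chain other than Itgb1 (left) and each collagen-receptor α chain (right) in TECs, as mean ± SD of 3 libraries. In both treated groups Itgb3 holds a larger share and Itgb6 a smaller one than in control cells, and Itga2 is above 90% of the collagen α chains.

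In NRK49F fibroblasts, TGF-β1 raised 8 of the 9 subunits, most strongly the collagen chains Itga2, Itga11 and Itga1, and lowered Itgb8. All 9 members were called, beside 71.8% of the 11444 genes tested, with 33.7% of those genes called higher and 38.0% lower. The median log2 change was 1.35 over the members and −0.05 over all genes. A total of 8 members had an absolute log2 change of at least 1, beside 23.1% of all genes, and the groups did not overlap for 9 members, beside 74.3% of all genes. With both agents over TGF-β1, 7 members were lower, Itgb8 was higher and Itgb6 was not called, beside 62.7% of genes called in either direction, 31.6% higher and 31.1% lower. The groups did not overlap for 8 members, beside 70.0% of all genes. The median log2 change was −0.66 over the members and −0.00202 over all genes, and 4 members had an absolute log2 change of at least 1, beside 13.4% of all genes. Between both agents and control, where 66.8% of genes were called, 33.4% higher and 33.4% lower, 7 members were higher and Itgb3 and Itgb8 were lower. Of these, 5 had an absolute log2 change of at least 1, beside 18.8% of all genes, and 9 did not overlap, beside 70.6% of all genes. Without the libraries numbered 2, every member kept its call and direction in these 3 comparisons except Itgb8, given below.

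**Figure D3:**
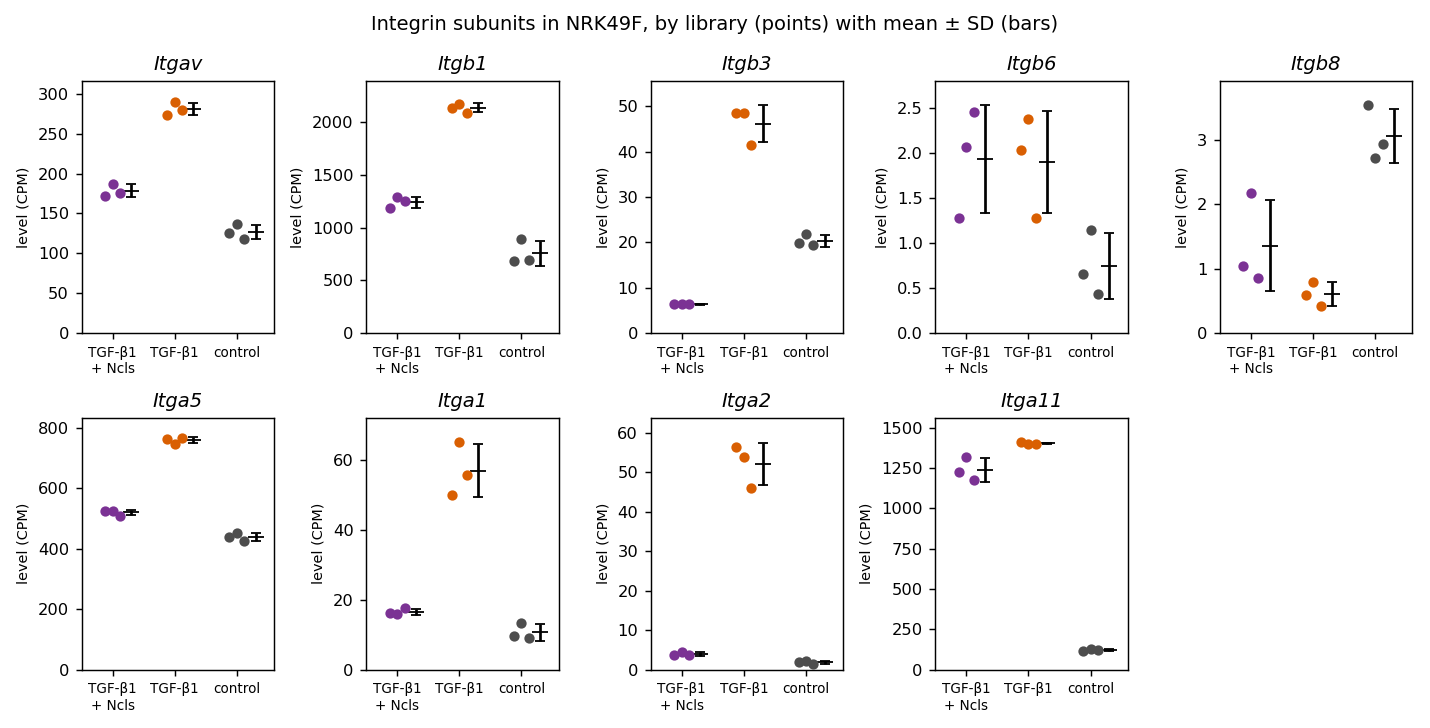
Level of each integrin subunit in CPM (vertical axes, from 0) in the 9 NRK49F libraries, with TGF-β1 and narciclasine, TGF-β1 alone and control from left to right. Points are libraries and bars are the mean ± SD of 3; Itga2 and Itgb3 with both agents sit far below TGF-β1 alone, while Itga11 with both agents stays close to it.

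The αv chain Itgav in NRK49F had 172, 187 and 176 CPM with TGF-β1 and narciclasine, 274, 289.5 and 279.8 CPM with TGF-β1, and 125, 136 and 118 CPM in control cells. The groups did not overlap, with TGF-β1 highest and control lowest. The test gave log2 changes of 1.15 (SE 0.0608, adjusted p = 2.68e-10) with TGF-β1 over control and −0.66 (SE 0.0599, adjusted p = 2.32e-07) with both agents over TGF-β1. For its partner Itgb3 the libraries had 6.45, 6.36 and 6.29 CPM with TGF-β1 and narciclasine, 48.6, 48.4 and 41.5 CPM with TGF-β1, and 19.9, 21.8 and 19.3 CPM in control cells. Here the libraries with both agents were lowest of all, below control cells, and TGF-β1 libraries were highest. The log2 change was 1.18 (SE 0.089, adjusted p = 1.42e-08) with TGF-β1 over control and −2.86 (SE 0.101, adjusted p = 2.3e-11) with both agents over TGF-β1. Compared with control cells Itgb3 fell with both agents, with a log2 change of −1.67 (SE 0.104, adjusted p = 2.04e-09). Itgb6 was near 0, with 1.28, 2.06 and 2.45 CPM with TGF-β1 and narciclasine, 2.03, 2.38 and 1.27 CPM with TGF-β1, and 0.66, 1.14 and 0.428 CPM in control cells. These values stand on 7 to 38 counts a library; control libraries were lowest, and the other groups overlapped each other. In log2 terms the change was 1.35 (SE 0.405, adjusted p = 0.00778) for TGF-β1 over control and 0.02 (SE 0.361, adjusted p = 0.962) for both agents over TGF-β1. Itgb8 was as rare, with 1.05, 2.17 and 0.861 CPM with TGF-β1 and narciclasine, 0.59, 0.793 and 0.423 CPM with TGF-β1, and 3.54, 2.72 and 2.93 CPM in control cells. Control libraries were highest and TGF-β1 libraries, on 6 to 11 counts each, lowest. TGF-β1 lowered it, with a log2 change of −2.34 (SE 0.385, adjusted p = 6.37e-05) over control, and with both agents over TGF-β1 the change was 1.19 (SE 0.412, adjusted p = 0.0209). That second call rested on single libraries: it ended without the library numbered 2 of the group with both agents (0.67, adjusted p = 0.17), without all libraries numbered 2 (0.91, adjusted p = 0.109), and without TGF-β1 library 1 (1.17, adjusted p = 0.0578) or 3 (0.99, adjusted p = 0.0848). Between both agents and control the log2 change of Itgb8 was −1.15 (SE 0.335, adjusted p = 0.00706), and it was −1.75 (adjusted p = 7.9e-05) with all 3 libraries numbered 2 left out.

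Of the fibronectin receptor chains, Itga5 in NRK49F had 527, 525 and 511 CPM with TGF-β1 and narciclasine, 764, 748 and 767 CPM with TGF-β1, and 441, 454 and 427 CPM in control cells. All 3 groups were separate, and the libraries with both agents were nearer to control than to TGF-β1. The test gave log2 changes of 0.79 (SE 0.0491, adjusted p = 1.79e-09) with TGF-β1 over control and −0.54 (SE 0.0489, adjusted p = 1.98e-07) with both agents over TGF-β1. Against control, both agents gave 0.24 (SE 0.0489, adjusted p = 0.000472), and 0.13 (adjusted p = 0.0321) under scaling by total counts. The common β1 chain Itgb1 had 1187, 1290.4 and 1252 CPM with TGF-β1 and narciclasine, 2139, 2179 and 2093 CPM with TGF-β1, and 688, 889 and 690.4 CPM in control cells. Groups did not overlap, though control library 2 was well above the other control libraries. TGF-β1 gave a log2 change of 1.50 (SE 0.0866, adjusted p = 2.12e-09) over control, and both agents gave −0.78 (SE 0.0852, adjusted p = 2.54e-06) over TGF-β1.

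The collagen chains had the largest changes with TGF-β1 among the members in NRK49F. With narciclasine added, Itga2 and Itga1 lay above control but nearer to it than to TGF-β1, while Itga11 lay near TGF-β1. Itga2 had 3.66, 4.56 and 3.64 CPM with TGF-β1 and narciclasine, 56.4, 53.8 and 46.2 CPM with TGF-β1, and 1.92, 2.15 and 1.47 CPM in control cells. The TGF-β1 libraries stood far above both other groups, and those with both agents lay above control without overlap. Control values of Itga2 rest on 24 to 34 counts a library. The log2 change was 4.82 (SE 0.147, adjusted p = 6.15e-13) with TGF-β1 over control, a 28.2-fold level, and −3.71 (SE 0.13, adjusted p = 2.16e-11) with both agents over TGF-β1. With both agents over control it was 1.10 (SE 0.187, adjusted p = 9.26e-05). Itga1 had 16.2, 16.0 and 17.6 CPM with TGF-β1 and narciclasine, 50.1, 65.2 and 55.6 CPM with TGF-β1, and 9.65, 13.3 and 9.04 CPM in control cells. As for Itga2, TGF-β1 was highest and both agents lay nearer to control. TGF-β1 gave 2.42 (SE 0.135, adjusted p = 1.49e-09) over control, and both agents gave −1.78 (SE 0.128, adjusted p = 4.74e-08) over TGF-β1. Against control, both agents gave 0.64 for Itga1 (SE 0.143, adjusted p = 0.00127). Itga11 had 1227, 1318 and 1174 CPM with TGF-β1 and narciclasine, 1408, 1399.8 and 1399 CPM with TGF-β1, and 117, 127 and 124 CPM in control cells. Libraries with both agents were close below those with TGF-β1, and both groups were far above control. In log2 terms the change was 3.51 (SE 0.0629, adjusted p = 2.97e-15) with TGF-β1 over control, an 11.4-fold level, and 3.34 (SE 0.0624, adjusted p = 6.64e-15) with both agents over control. The small decrease with both agents over TGF-β1, −0.18 (SE 0.0563, adjusted p = 0.0127), lost its call under scaling by total counts (−0.11, adjusted p = 0.115) and without library 3 of the group with both agents (−0.13, adjusted p = 0.0817). Among the fibroblast markers of NRK49F, 8 genes summed to 12485 to 12737 CPM with both agents, 23408 to 24634 CPM with TGF-β1 and 7513 to 9011 CPM in control cells, nearly all of it Col1a1. Pdgfra, a defining gene of fibroblasts, had 100.1 CPM with both agents, 181 CPM with TGF-β1 and 354 CPM in control cells. Endothelial and podocyte genes summed to at most 1.90 CPM in any NRK49F library, macrophage and leukocyte genes to 43.0 to 105 CPM, mostly Cd14 (Adgre1 and Itgam were at or below 0.0362 CPM), and platelet genes to at most 4.38 CPM. The part of these markers in the integrin values was not tested.

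The responses to TGF-β1 differed between the cell kinds for all 9 subunits measured in both, by a test of the difference itself in 1 fit of all 18 libraries, beside 61.5% of 12135 genes. Cell kind and species go together here and cannot be told apart. Itga1 fell in TECs and rose in NRK49F, and the log2 difference, TECs minus NRK49F, was −3.76 (SE 0.131, adjusted p = 7.29e-18). Itga2 and Itga11 rose in both but less in TECs, with differences of −3.23 (SE 0.132, adjusted p = 3.04e-18) and −2.45 (SE 0.116, adjusted p = 8.62e-17). Itgb1 also rose less in TECs, with a difference of −1.08 (SE 0.0987, adjusted p = 7.83e-09). In contrast Itga5, the fibronectin chain, rose more in TECs, with a difference of 1.24 (SE 0.0609, adjusted p = 2.12e-16), as did Itgb3, with 0.95 (SE 0.0913, adjusted p = 3.76e-10), and Itgav, with 0.25 (SE 0.0685, adjusted p = 0.00211). The difference was −1.38 (SE 0.304, adjusted p = 0.000275) for Itgb6 and 1.49 (SE 0.389, adjusted p = 0.00147) for Itgb8. The effect of narciclasine on top of TGF-β1 differed for 7 of the 9, beside 46.9% of genes. The decreases of Itga2, Itgb3 and Itga1 were larger in NRK49F than in TECs, where Itga1 was not called, with differences of 3.29 (SE 0.109, adjusted p = 2.7e-19), 2.36 (SE 0.101, adjusted p = 6.78e-17) and 1.89 (SE 0.127, adjusted p = 1.22e-11). Itgb1 differed by 0.50 (SE 0.0983, adjusted p = 0.000286) and Itga5 by 0.23 (SE 0.0595, adjusted p = 0.00239) in the same direction, and the Itga5 call ended under scaling by total counts (0.12, adjusted p = 0.0929). It also ended without NRK49F TGF-β1 library 1 (0.15, adjusted p = 0.0601) or 3 (0.15, adjusted p = 0.0581), and without library 3 of NRK49F with both agents (0.14, adjusted p = 0.0725). Itga11 fell more in TECs, with a difference of −0.71 (SE 0.108, adjusted p = 3.61e-06). The difference of Itgb8, −1.20 (SE 0.429, adjusted p = 0.0229), ended without library 2 of NRK49F with both agents (−0.65, adjusted p = 0.227), without TGF-β1 library 3 (−1.08, adjusted p = 0.0611) and without all NRK49F libraries numbered 2 (−0.89, adjusted p = 0.151). Itgb6, at −0.16 (SE 0.246, adjusted p = 0.639), and Itgav, at 0.15 (SE 0.0679, adjusted p = 0.0818), were not called, though Itgav was called without all NRK49F libraries numbered 2 (0.17, adjusted p = 0.00113) and without library 2 of NRK49F with both agents (0.19, adjusted p = 0.0245).

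**Figure D4:**
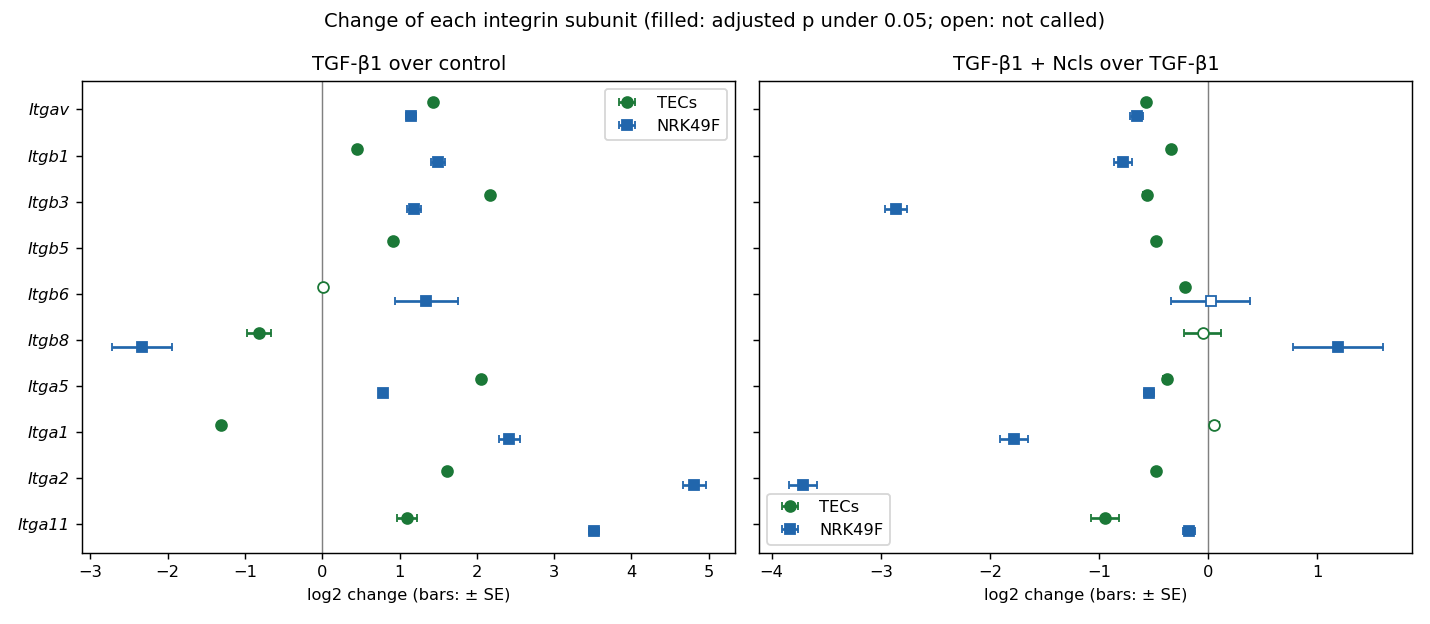
Log2 change (horizontal axes) of each subunit with its SE, for TGF-β1 over control (left) and TGF-β1 with narciclasine over TGF-β1 (right), in TECs (circles) and NRK49F (squares); filled symbols passed the test at an adjusted p under 0.05. Itga1 lies on opposite sides of 0 in the 2 cell kinds on the left, and Itgb3, Itga1 and Itga2 lie much further left in NRK49F than in TECs on the right.

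The other promoters were searched for the same element and for sites of 5 further kinds, on both strands, in the 300 bases that RefSeq GRCm38.p6 gives per start. Promoters were matched for 9 members, all but Itgb3, and Itgb6, with a pair of starts, was counted by the first. CAGAC or GTCTG stood in 6 of 9 (Itgb1, Itgb6, Itgb8, Itga1, Itga2 and Itga5) and in 49.6% of all 32851 promoters. The Itgb8 window (chr12:119238227-119238526, minus strand) lies inside the gene, downstream of the GENCODE gene start printed for Itgb8 here. The GC box GGGCGG, bound by Sp1, stood in 5 of 9 and in 35.7% of all promoters. The TEAD site GGAATG stood in 1, that of Itgb1, and in 14.7% of all. The AP-1 site TGANTCA, the palindrome GTCTAGAC bound by SMAD proteins, and the CArG box of SRF stood in 0 of 9 counted this way, and in 7.81%, 0.213% and 1.63% of all promoters. The second Itgb6 start, left out of these counts, had a CArG box with its first base 50 bases before the start. Itga1, which fell in TECs, and Itga2 and Itga5, which rose, all carry CAGAC or GTCTG in these windows.

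Genes for the ligands of these receptors were counted next. Of 22 genes for integrin ligands and partners of latent TGF-β, 21 were tested in TECs, where 17 rose and 2 fell with TGF-β1 over control (median log2 change 0.82), beside 34.1% of all genes higher and 34.9% lower. Fn1, fibronectin itself, averaged 16481 ± 562 CPM with TGF-β1 and 3228 ± 65.8 CPM in control cells (SD, n = 3 each), a log2 change of 2.35 (SE 0.0259, adjusted p = 1.49e-26). Tnc, the tenascin C bound by αv integrins, rose by 2.43 (SE 0.0236, adjusted p = 7.05e-45), and Col1a1, the α1 chain of type I collagen, by 2.55 (SE 0.047, adjusted p = 1e-28). When narciclasine was added to TGF-β1 in TECs, 4 ligand genes rose and 12 fell (median −0.12), beside 26.8% of all genes higher and 25.5% lower. Col1a2, the other chain of type I collagen, averaged 16.3 ± 1.17 CPM with both agents and 87.8 ± 3.59 CPM with TGF-β1, a log2 change of −2.43 (SE 0.0568, adjusted p = 5.87e-31). Its control mean was 25.9 CPM, above that with both agents. Spp1, the αvβ3 ligand osteopontin, averaged 1802 ± 26.8 CPM with both agents and 3759 ± 51.0 CPM with TGF-β1, giving a log2 change of −1.06 (SE 0.0196, adjusted p = 1.41e-34). Spp1 was highest in control TECs, at 7326 CPM, and was already lower with TGF-β1 alone (log2 change −0.96, SE 0.0194, adjusted p = 3.7e-34). In NRK49F 18 of these genes were tested, and with TGF-β1 over control 17 rose and 1 fell (median 1.70), beside 33.7% of all genes higher and 38.0% lower. Postn, the αv ligand periostin, averaged 1970.0 ± 154 CPM with TGF-β1 and 12.1 ± 1.12 CPM in control cells, a log2 change of 7.34 (SE 0.107, adjusted p = 1.01e-15). Narciclasine on top of TGF-β1 gave 2 that rose and 12 that fell (median −0.43), beside 31.6% of all genes higher and 31.1% lower. Among them Spp1 averaged 232 ± 21.9 CPM with both agents and 2676 ± 76.4 CPM with TGF-β1, a log2 change of −3.53 (SE 0.223, adjusted p = 5.67e-06), and Tgfb1, the gene of TGF-β1, averaged 82.4 ± 9.60 CPM with both agents and 213 ± 4.44 CPM with TGF-β1, giving a log2 change of −1.37 (SE 0.108, adjusted p = 6.77e-07).

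Of 16 other integrin subunits, 12 were tested in TECs and 7 in NRK49F. With TGF-β1 over control in TECs 6 rose and 3 fell (median 0.35), against 2 and 4 in NRK49F (median −0.47), and 69.0% of all genes in TECs and 71.8% in NRK49F were called in either direction. Of the 6 that rose in TECs, 4 were the leukocyte chains Itgal, Itgam, Itgax and Itga4, named after their values were seen. Each had a mean below 5 CPM in every TEC group. The leukocyte β2 chain Itgb2, of the same list, was not called there (log2 change 0.21, SE 0.0959, adjusted p = 0.0518). Itgax was not as low in NRK49F, with 47.4 CPM with TGF-β1 and 34.8 CPM in control cells. Itgam is also in the macrophage and leukocyte list, whose summed level in TECs was higher with TGF-β1 as well. The part of such cells in the TEC values was not tested. The laminin-binding chains Itga6 and Itga3 fell in TECs, with log2 changes of −0.82 (SE 0.0321, adjusted p = 3.47e-24) and −0.50 (SE 0.0243, adjusted p = 2.58e-19), while Itgb4, which pairs with α6, rose by 0.58 (SE 0.0326, adjusted p = 5.69e-16). In NRK49F Itgb4 averaged 20.6 ± 2.51 CPM with TGF-β1 and 104 ± 41.2 CPM in control cells, a log2 change of −2.34 (SE 0.284, adjusted p = 0.000199). Relative to TGF-β1 alone, both agents gave 1 that rose and 7 that fell in TECs (median −0.76), and 0 rose and 4 fell in NRK49F (median −0.68), beside 52.3% of all genes called in TECs and 62.7% in NRK49F; Itgal, Itgam, Itgax and Itga4 were 4 of the 7 in TECs. In TECs the leukocyte β2 chain Itgb2 averaged 6.02 ± 0.535 CPM with both agents and 12.7 ± 0.989 CPM with TGF-β1, a log2 change of −1.09 (SE 0.107, adjusted p = 2.92e-11), beside the leukocyte genes described above. Itga6 in NRK49F averaged 38.4 ± 3.83 CPM with both agents and 93.5 ± 9.39 CPM with TGF-β1, a log2 change of −1.28 (SE 0.128, adjusted p = 7.57e-06).

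Of 28 genes for integrin adaptors and activators, all were tested in TECs and 26 in NRK49F. With TGF-β1 over control 16 rose and 5 fell in TECs (median 0.18), and 14 rose and 10 fell in NRK49F (median 0.19), beside 69.0% of all genes called in TECs and 71.8% in NRK49F. Nedd9, a scaffold of focal adhesions, rose in both, by log2 changes of 2.23 (SE 0.032, adjusted p = 3.14e-39) in TECs and 2.08 (SE 0.138, adjusted p = 7.93e-07) in NRK49F. Fermt1, the epithelial kindlin that activates β chains, averaged 728 ± 25.4 CPM with TGF-β1 and 343 ± 3.96 CPM in control TECs, a log2 change of 1.09 (SE 0.0255, adjusted p = 6.13e-32). Actn1, the α-actinin that ties integrins to actin, rose in NRK49F by 1.66 (SE 0.0852, adjusted p = 5.96e-10). Relative to TGF-β1, 14 adaptor genes rose and 9 fell in TECs (median 0.16) and 14 rose and 7 fell in NRK49F (median 0.21), beside 52.3% of all genes called in TECs and 62.7% in NRK49F. Tgfb1i1, the adhesion protein Hic-5, rose in TECs by 0.98 (SE 0.0591, adjusted p = 2.18e-17), and Sharpin, which keeps integrins inactive, rose in NRK49F by 0.92 (SE 0.0635, adjusted p = 1.42e-08). Tln2, a talin that binds β tails, averaged 72.6 ± 8.96 CPM with both agents and 167 ± 2.64 CPM with TGF-β1 in NRK49F, a log2 change of −1.20 (SE 0.0828, adjusted p = 1.94e-08).

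The genes whose pattern over the 9 libraries was most like that of the member with the widest range were found by Pearson's r of log2 CPM, as a description. For Itgb3 in TECs these were Atp2b4, Lrrk2, Tnc, Loxl2 and Arhgef3, with r of 0.9989 to 0.9992 among 10355 genes. Tnc had 2278 CPM with both agents, 3379 CPM with TGF-β1 and 628 CPM in control TECs. Loxl2, a lysyl oxidase that crosslinks collagen, had 659 CPM with both agents, 926 CPM with TGF-β1 and 204 CPM in control TECs. For Itga2 in NRK49F they were Hsp90b1, Spcs3, Stard10, Cdc6 and Smtn, with r of 0.9945 to 0.9969 among 9627 genes. Hsp90b1, a chaperone of the endoplasmic reticulum that folds integrins, had 760 CPM with both agents, 2095 CPM with TGF-β1 and 586 CPM in control NRK49F. The 9 libraries fall into 3 treatments and are not 9 independent points.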

How the data were processed

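Polyadenylated RNA of 9 TEC and 9 NRK49F libraries was analysed from the authors' deposited counts per gene, which were not normalised. Per the submitters' processing notes, HISAT2 2.1.0, featureCounts and DESeq2 were used and the build was mm10 for all samples; of the rat build and the annotation release, the sources used here give nothing. Counts were fitted with edgeR 4.0.16 (R 4.3.3), filterByExpr by group, TMM scaling and the robust quasi-likelihood test, with the 9 libraries of a cell kind in 1 fit and Benjamini-Hochberg adjustment over all genes tested. The difference between cell kinds was an interaction in 1 fit of 18 libraries over 12135 genes matched by symbol, so it can differ slightly from the difference of the separate fits. CPM are counts over the TMM-scaled library total. Exon lengths and positions are from GENCODE M21 (GRCm38), for mouse alone. No interval was computed for single values; SDs are over libraries. RLE and total-count scaling, no filter, DESeq2 1.42.0, a replicate block, the 6 libraries compared alone and left-out libraries were tried. The pipeline was tested on simulated data. Beside all members, the genes named are up to 3 changed genes per list with the largest change and at least 5 CPM in the higher group. The members, lists and markers were chosen with earlier results of these data known.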

Additional observations from a re-analysis of the deposited data

Results flagged for a closer look

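A total of 16 values were taken for a closer look because TECs and NRK49F differed in the interaction test of edgeR. For the response to TGF-β1 the log2 difference, TECs minus NRK49F, was 0.25 for Itgav, −1.08 for Itgb1, 0.95 for Itgb3, −1.38 for Itgb6, 1.49 for Itgb8, −3.76 for Itga1, −3.23 for Itga2, 1.24 for Itga5 and −2.45 for Itga11. For the effect of narciclasine on top of TGF-β1 it was 0.50 for Itgb1, 2.36 for Itgb3, −1.20 for Itgb8, 1.89 for Itga1, 3.29 for Itga2, 0.23 for Itga5 and −0.71 for Itga11. Of these, Itga1 alone moved in opposite directions in the cell kinds with both calls passing the test, with a log2 change of −1.31 in TECs and 2.42 in NRK49F for TGF-β1 over control.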

How the results depend on the processing

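Of 1035 values of 75 member results under the alternatives, 1010 kept their direction and their side of the threshold, 14 lost the call, 3 gained one and 8 changed sign, and 66 results did so under none. The counts of members called stayed within 1.5 times in 111 of 111 cases, a wide band for so few members. For the narciclasine difference between cell kinds the count ranged from 5 to 8, beside the 7 reported. Scaling by total counts moved the median log2 change of all genes, TGF-β1 over control, to −0.135 in TECs (3298 genes higher and 6169 lower, beside 4513 and 4626) and −0.237 in NRK49F (2965 and 5497, beside 3862 and 4354). With both agents over control it moved it to −0.0999 in TECs (3174 and 5433, beside 4296 and 4053) and −0.125 in NRK49F (3077 and 4608, beside 3820 and 3825). The sign changes were in values that were not called: Itgb6 in TECs with TGF-β1 over control (−0.127 by total counts, called there; −0.0253 to 0.0397 with a library left out), Itgb8 in TECs with both agents over TGF-β1 (−0.191 to 0.0307 with a library left out) and Itgb6 in NRK49F with both agents over TGF-β1 (−0.199 to 0.251). Same-numbered libraries did not deviate together (r from −0.102 to 0.166 in TECs and −0.0404 to 0.118 in NRK49F), so the numbers were not taken as pairs. With the replicate number as a block, the narciclasine difference between cell kinds was called for Itgav (log2 difference 0.15, adjusted p = 0.039), and all other member calls were as without the block. The cause of these changes was not tested. With the longest coding transcript as the length, an alternative chosen after seeing the data, the Itgb3 share of the β chains other than Itgb1 was 14.8% with both agents, 16.3% with TGF-β1 and 6.27% in control TECs. Depth limits Itgb6 and Itgb8 in NRK49F, at 6 to 59 counts a library, and also the control level of Itga2 there, at 24 to 34 counts a library.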
